A study of Ambystoma mexicanum with 7 samples.

Results

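The miR-99/100 and miR-125 families are microRNAs, short RNAs that lower the output of messenger RNAs. They were read here in regenerating hindlimb blastema and in mature limb of the axolotl (Ambystoma mexicanum), a salamander that regrows amputated limbs. The members were taken by name alone: any probe with a vertebrate entry called miR-99, miR-99a, miR-99b, miR-100, miR-125a, miR-125a-5p, miR-125b, miR-125b-5p or miR-125c. This gave 8 of 2021 named probes on the Exiqon array, 3 of the miR-99/100 family and 5 of the miR-125 family, and 22 of 1974 miRNA probes on the LC Sciences array, 10 and 12 by family. Both arrays carry probes designed on other species, and axolotl sequences of these miRNAs were not used here.

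The tested tissue was the blastema at 17 days post-amputation (dpa), when it is a mid-bud mound of cells that look undifferentiated. Its reference was the non-regenerating stump, a piece of mature limb with skin, bone, muscle and nerve that was taken from the same 3 white axolotls at day 0. The animals carry the numbers 368, 369 and 378, and no allele or agent separates the groups. Aliquots of each total RNA went to both companies. Exiqon hybridized each sample (dye Hy3) to an array of its own, 6 arrays in all, against a pool of all samples (dye Hy5). LC Sciences hybridized both samples of an animal to 1 array, 3 arrays in all, labelling the blastema with Cy3 on the array of animal 368 and with Cy5 on the other arrays. These are whole tissue pieces, so fewer cells of a type and less RNA per cell cannot be told apart.

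In vertebrate genomes these families lie together: miR-100 beside a let-7a gene and a miR-125b gene, miR-99a beside let-7c and another miR-125b gene, and miR-99b beside let-7e and miR-125a. The miR-99/100 miRNAs are best known in mammals for targeting mTOR, a kinase that drives growth. The miR-125 miRNAs are the vertebrate kin of lin-4, the first miRNA found in Caenorhabditis elegans, where it times larval development by repressing lin-14 and lin-28, and they target Lin28 in mammals. The let-7 miRNAs beside them accumulate as cells differentiate and also target Lin28.

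A miRNA finds its targets mainly through its seed, bases 2 to 8 counted from the 5′ end. The target sequences that the LC Sciences array file gives for its member probes are printed 5′ to 3′ with the seed in capitals, because the members of a family differ only outside it. First come those of the miR-99/100 family, of which miR-100 is there in a long and a short form.
miR-100, 22 bases: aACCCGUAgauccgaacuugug
miR-100, 21 bases: aACCCGUAgauccgaacuugu
miR-99 and miR-99a: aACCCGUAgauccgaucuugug
miR-99b: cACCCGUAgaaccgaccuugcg
The miR-125 family follows.
miR-125a: uCCCUGAGacccuuaaccugug
miR-125a-5p: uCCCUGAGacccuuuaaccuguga
miR-125b: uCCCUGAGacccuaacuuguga
miR-125c: uCCCUGAGacccuaacucguga

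Each family held a single seed, and no other of the 1974 targets on that array had either of them. With positions counted from the 5′ end, miR-99a differed from miR-100 by A16U alone, and miR-125c from miR-125b by U18C alone. The human miR-99b target was farther away, with A1C, U11A, A16C and U21C against miR-100. The zebrafish and frog miR-125a target and the human miR-125a-5p target shared their first 14 bases. The human target then had an added U, and an added A at its 3′ end, and was otherwise the same. Of the 22 LC Sciences probes, 4 had the longer miR-100 target, 4 the miR-99/miR-99a target, 3 the miR-125a target, 6 the miR-125b target and 2 the miR-125c target, so they are repeats of few measurements. How far probes that differ by a single base each bound the other miRNA was not tested.

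The median Hy3 signal of an Exiqon probe was 118 to 127 per array, and the brightest of the 7 negative control probes reached 128 on any array. On the arrays of animal 368, 1584 spots of the blastema and 1209 of the stump had a poor flag, against 186 to 214 on the other arrays. Such spots were left out, and of the 24 spots behind each member over the arrays 21 to 24 were kept. The median LC Sciences signal of a miRNA probe was 13 to 17, and 489 to 576 probes per sample reached 32, the level used as the detection limit.

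On the Exiqon arrays all 8 member probes were lower in 17 dpa blastema than in stump, by 0.40 to 0.96 on the log2 scale, with a median of -0.62 against 0.00 over all 2011 probes tested. All 8 passed the limma test (adjusted p under 0.05), where 10.8% of all probes were called lower. Many of those probes were near background. With only the 972 probes brighter than every negative control on all arrays of a group, 224 were called lower, among them all 7 members kept. In all 8 every blastema lay below every stump, as in 18.5% of all probes, and the exact permutation test gave p = 0.1 for each (two-sided), the smallest that 3 samples against 3 allow. The miR-99/100 probes had a median difference of -0.87 and the miR-125 probes -0.60. The size depended on the scaling. With median centring of each array in place of loess the member median was -1.25 and all 8 were called. Of all 2011 probes 262 were then called lower and 57 higher, with a median of 0.03. When the loess used the spike-in control spots alone the member median was -1.41 and 7 were called. Of all probes 225 were then called lower and 28 higher, with a median of 0.08.

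Among these probes miR-100 differed most. Its probe carries names from insects, fishes, frog, birds and mammals. Its log2 ratios to the reference pool were -0.88, -0.71 and -0.81 in the blastemas of animals 368, 369 and 378, against 0.16, 0.06 and 0.25 in their stumps. Its Hy3 signals behind these ratios were 214, 282 and 313 in blastema, against 701, 490 and 641 in stump. Its reference channel read 673, 651 and 676 on the blastema arrays, against 639, 637 and 554 on the stump arrays. The groups were thus apart in this channel too, in the opposite direction and by less than in the sample channel. Both channels entered the ratio. The blastema was 1.94-fold lower (log2 -0.96, SE 0.11, 95% interval -1.20 to -0.71, adjusted p = 0.000336).

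The miR-99/miR-99a probe, whose names come from mammals, chicken, frog and zebrafish, came next. Its ratios were -0.63, -0.66 and -0.82 in blastema, against 0.09, 0.07 and 0.33 in stump. The difference was -0.87 (SE 0.12, 95% interval -1.13 to -0.60, adjusted p = 0.000762), with -0.72, -0.74 and -1.14 in the single animals. This was a dim probe, at 122 to 138 in the blastemas and 164 to 205 in the stumps, though brighter than every negative control on all arrays.

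The miR-99b probe, named for mammals only, was at the limit of detection. It was brighter than every negative control on 0 blastema arrays and 1 stump array. Its Hy3 signals were 101, 103 and 113 in blastema, against 135, 115 and 122 in stump. The ratios were -1.09, -1.04 and -0.96 in blastema, against -0.36, -0.70 and -0.45 in stump, so the groups stayed apart. The fitted difference was -0.53 (adjusted p = 0.0122), between signals that lay mostly at background in both groups, so no fold is given.

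Of the miR-125 probes, the one that lists miR-125b of fishes, frog, birds and mammals, with miR-125 of insects, was lower in blastema by 0.65 (SE 0.12, adjusted p = 0.00321). Its ratios were -0.58, -0.45 and -0.53 in blastema, against 0.20, -0.03 and 0.23 in stump, from Hy3 signals of 434, 580 and 649 in blastema and 1651, 1028 and 1605 in stump. The lowest stump was that of animal 369 and still lay above every blastema. The probe that also lists miR-125c gave -0.52, -0.36 and -0.43 in blastema, against 0.25, 0.07 and 0.28 in stump (difference -0.64, adjusted p = 0.00314). The zebrafish miR-125c probe gave -0.51, -0.43 and -0.50 in blastema, against 0.15, -0.05 and 0.21 in stump (difference -0.59, adjusted p = 0.00477). Which RNA each of these 3 probes bound was not tested, and they are not separate evidence of separate miRNAs.

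For the fish and frog miR-125a probe the ratios were -0.53, -0.33 and -0.40 in blastema, against 0.27, 0.10 and 0.18 in stump, and the difference was -0.60 (SE 0.11, adjusted p = 0.00374). The mammalian miR-125a-5p probe had the smallest difference, with 0.00, -0.04 and -0.23 in blastema, against 0.26, 0.29 and 0.38 in stump (difference -0.40, SE 0.11, adjusted p = 0.0324). It was the only member probe to lose its call in limma with the animal as a replicate block, where its adjusted p was 0.0779. The other 7 stayed called, and 179 of all 2011 probes were called lower with that block. Without animal 378, 2 of the 8 stayed called, miR-100 and miR-99/miR-99a, while all 8 differences remained below 0. Calls over all 2011 probes fell as well, to 97 lower, against 217 with all animals.

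**Figure D1:**
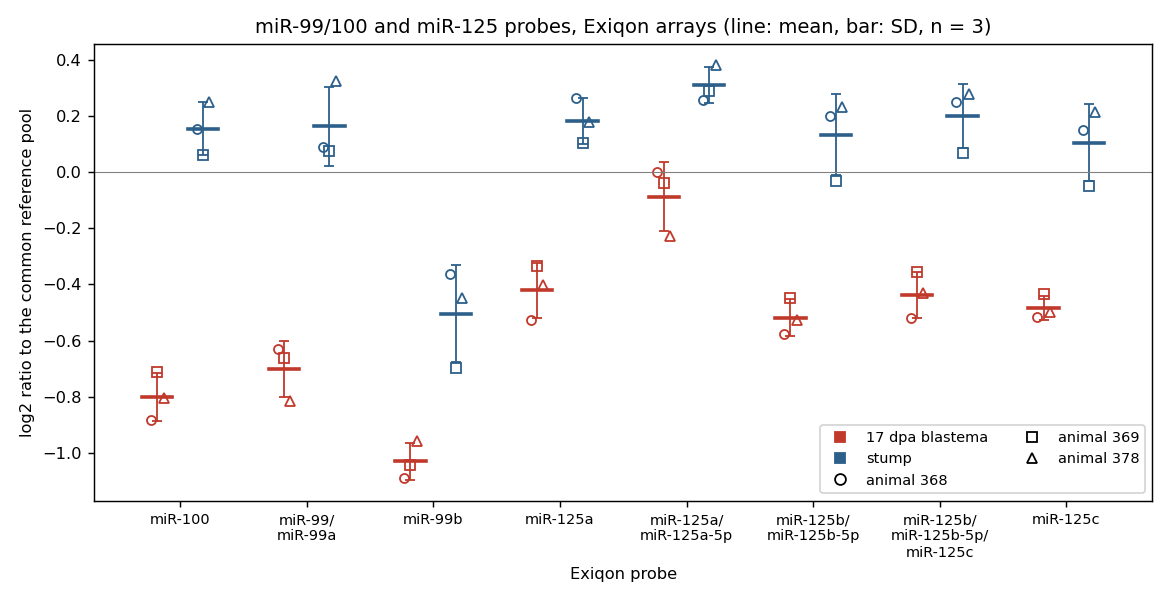
Log2 ratio of each sample to the common reference pool for the 8 Exiqon member probes, with 17 dpa blastemas in red on the left and stumps in blue on the right of each probe. Symbols give the animal, lines the mean and bars the SD (n = 3). In every probe the 3 blastemas lie below the 3 stumps, with the widest gap for miR-100 and the narrowest for miR-125a/miR-125a-5p.

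On the LC Sciences arrays the normalized signals gave another picture. Of the 22 member probes 21 passed the filter and none was called in either direction (adjusted p 0.157 to 0.993 from limma), where 48.2% of the 500 probes tested were called. By direction, 129 of the 500 were called higher and 112 lower. At an unadjusted p under 0.05 the count was also 0, where 283 of the 500 probes were called. The groups overlapped in every member probe, and how often they overlapped over all LC Sciences probes was not counted. Of the member differences 13 lay above 0 and 8 below, with a median of 0.13 against 0.01 over all probes tested. The 95% intervals reached from -1.16 to 1.09 over the members. The Exiqon differences of miR-100 (-0.96) and miR-99/miR-99a (-0.87) lay below the intervals of all LC Sciences probes of those names, while that of the miR-125a-5p probe (-0.40) lay inside the interval of its LC Sciences counterpart.

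The 6 miR-125b probes averaged 2443, 2425 and 3110 in the blastemas of animals 368, 369 and 378, against 1632, 2061 and 2996 in their stumps. The stump of animal 368 was the lowest sample and the blastema of animal 378 the highest, and the difference was 0.29, between 0.21 and 0.36 for the single probes. The miR-125c probes averaged 2524, 2197 and 2580 in blastema, against 1558, 1992 and 2840 in stump, a difference of 0.23. The miR-125a probes averaged 2491, 1923 and 2609 in blastema, against 1515, 2075 and 2672 in stump, a difference of 0.19. In all 3 targets animal 368 alone stood out, with 0.58, 0.70 and 0.72 for miR-125b, miR-125c and miR-125a, while animals 369 and 378 lay between -0.14 and 0.23. The array of animal 368 was also the only array with the blastema in Cy3, so animal and dye cannot be told apart here. Without animal 368 the median over the 21 members was -0.05 and 14 of them lay below 0. Without animal 369 it was 0.27 with 8 below 0, and without animal 378 it was 0.27 with 4 below 0.

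The human miR-125a-5p probe was the member with the lowest value. Its signals were 82, 90 and 100 in blastema, against 94, 171 and 135 in stump. Each blastema was below the stump of its own animal, by 0.20, 0.93 and 0.43, but the groups overlapped, and the difference of -0.52 did not pass the test (95% interval -1.16 to 0.12, adjusted p = 0.157).

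In the miR-99/100 family the values scattered around 0. The 4 probes for the longer miR-100 target averaged 183, 232 and 166 in blastema, against 186, 226.5 and 211 in stump (difference -0.11). The opossum probe for the shorter target read 496, 375 and 310 in blastema, against 362, 411 and 340 in stump (difference 0.06). The 4 probes for miR-99 and miR-99a averaged 146, 160 and 129 in blastema, against 148, 133 and 200 in stump (difference -0.13), and the animals ran both ways, at -0.05, 0.28 and -0.63. Probes with the same target differed by an SD of 0.05 to 0.11, less than the SD of 0.21 to 0.46 between animals. The human miR-99b probe had signals of 12 to 23 in every sample, below the detection limit, and was not tested.

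**Figure D2:**
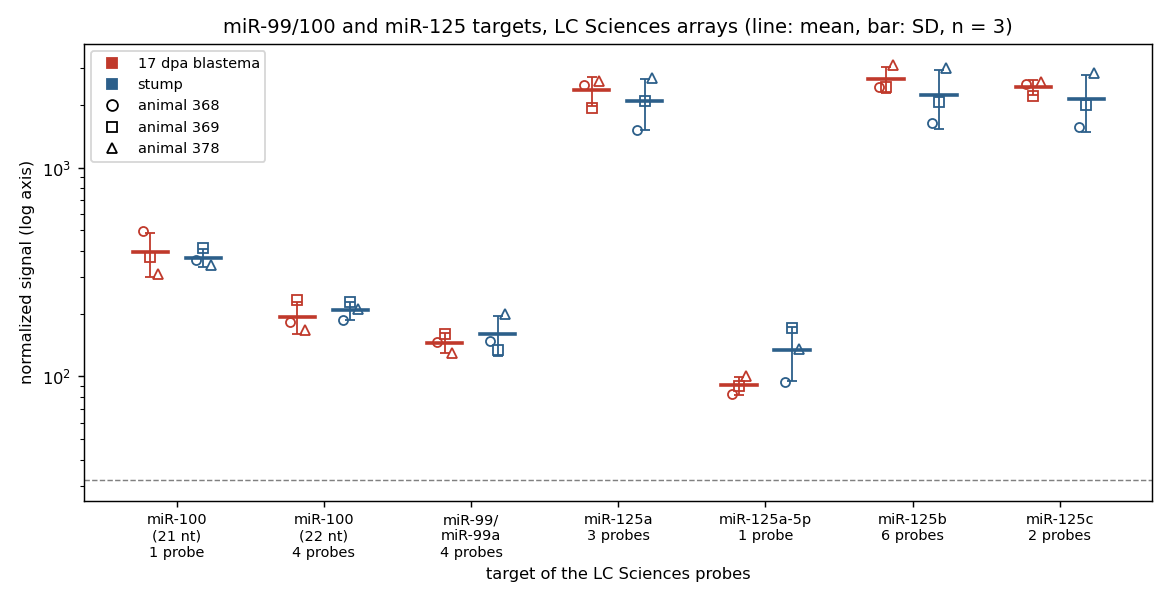
Normalized LC Sciences signal (log axis) for the 7 member targets that passed the filter, averaged over the probes of a target, with 17 dpa blastemas in red on the left and stumps in blue on the right. Lines give the mean, bars the SD (n = 3) and the dashed line the detection limit of 32. The groups overlap in all 7 targets.

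The direction of these LC Sciences values depended on the scale. The 5 spike-in control probes, which read synthetic RNA that the company adds to the samples, had a normalized signal 7.56-fold higher in blastema (log2 2.92), with 2.43, 3.36 and 2.96 in animals 368, 369 and 378. Relative to them, all 21 members were lower in blastema, with a median of -2.78 and values between -3.44 and -2.55, and all 21 were called. But the median of all 500 probes was then -2.91, with 2 probes called higher and 431 lower, so the members lay 0.13 above it. Quantile normalization and centring on the median of the probes kept gave 0 calls and medians of 0.16 and 0.07. With the dye as a covariate the member median was 0.27, again with 0 member calls, where 122 of the 500 probes were called higher and 129 lower.

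The array of animal 368 could also be read without normalization, from its spot values. There the median over the miRNA probes was taken as the background, 325 in the Cy3 channel (blastema) and 45.4 in the Cy5 channel (stump). The 21 members that exceeded 32 in both channels were all brighter in stump after its subtraction. The human miR-125b probe read 1657 in blastema, against 3226 in stump, a log2 ratio of -0.96. The human miR-100 probe read 155 in blastema, against 301 in stump, also -0.96. The spike-in probes stood at -0.17, against 2.43 in the normalized signals of this animal. The median of the 439 probes over 32 stood at -0.87. Relative to the spike-in probes the members had a median of -0.74, between -1.25 and -0.24, and relative to the median probe they had -0.05, between -0.55 and 0.46. In the normalized signals the same animal gave 0.57 for the human miR-125b probe and 0.27 for the human miR-100 probe. With the background from the blank spots (297 in Cy3, 46.9 in Cy5) 20 of the 21 were brighter in stump, the human miR-125a-5p probe being the exception. The median log2 ratio of the miR-99/100 probes was then -0.63, against -0.98 with the miRNA probe median as background. That of the miR-125 probes was -0.81, against -0.83. Relative to the median probe the miR-99/100 probes had 0.08, against -0.11, and the miR-125 probes -0.10, against 0.03. This is 1 array without replicate, with blastema in Cy3, so a dye effect and a difference of the samples cannot be told apart.

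**Figure D3:**
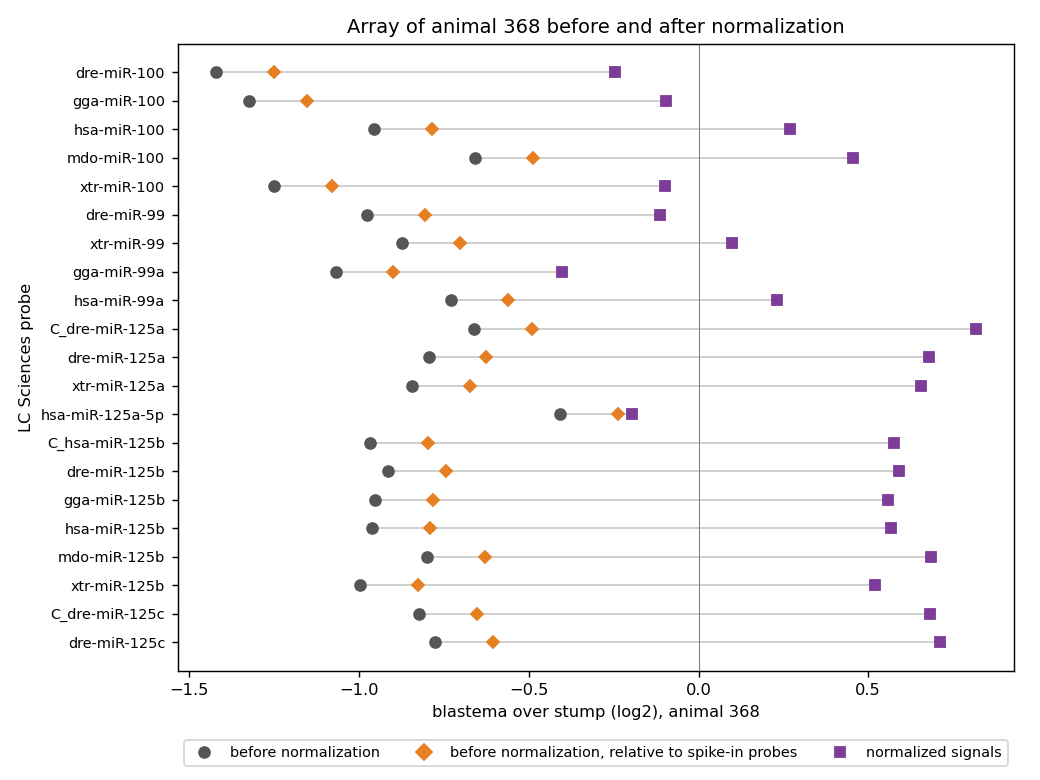
Log2 of blastema over stump for the 21 member probes on the LC Sciences array of animal 368. Grey circles are spot values before normalization after background subtraction, orange diamonds the same relative to the spike-in probes, and purple squares the deposited normalized signals. All 21 grey circles and orange diamonds lie left of 0, while most purple squares lie right of it.

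The difference between the platforms was tested itself, per animal, over the 153 miRNA names measured on both. For 6 of the 7 member names the LC Sciences difference lay above that of Exiqon (limma, adjusted p under 0.05), where 43.8% of the names did so. The median gap was 0.82 for the members, against 0.45 for all names. The gap was largest for miR-125b, where LC Sciences gave 0.29 and Exiqon -0.64, each the mean of its probes (gap 0.93, 95% interval 0.40 to 1.47, adjusted p = 0.0104). For miR-100 they gave -0.08 and -0.96 (gap 0.88, 95% interval 0.39 to 1.37, adjusted p = 0.00900). In all 6 names every animal had the higher value on LC Sciences. The names miR-99 and miR-99a share their Exiqon probe and are not separate there. The names miR-125a and miR-125a-5p also have an Exiqon probe in common, as do miR-125b and miR-125c. The 7 names are therefore not separate measurements.

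The exception was miR-125a-5p. It had -0.52 on LC Sciences and -0.40 on Exiqon (gap -0.12, 95% interval -0.67 to 0.43, adjusted p = 0.673). Both the LC Sciences probe and the Exiqon probe of this name were lower in the blastema of each animal. All gaps depended on the scale. Relative to the spike-in probes of LC Sciences, with Exiqon left at loess, that of the other names changed sign, to between -2.27 and -1.99. That of miR-125a-5p was -3.04. All 7 were called lower on LC Sciences, as were 147 of the 153 names. Without animal 369, 2 of the 7 names stayed called, where 45 of all 153 names were called higher on LC Sciences. Without animal 368 or animal 378, 4 stayed called, where 70 and 50 of the 153 were.

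**Figure D4:**
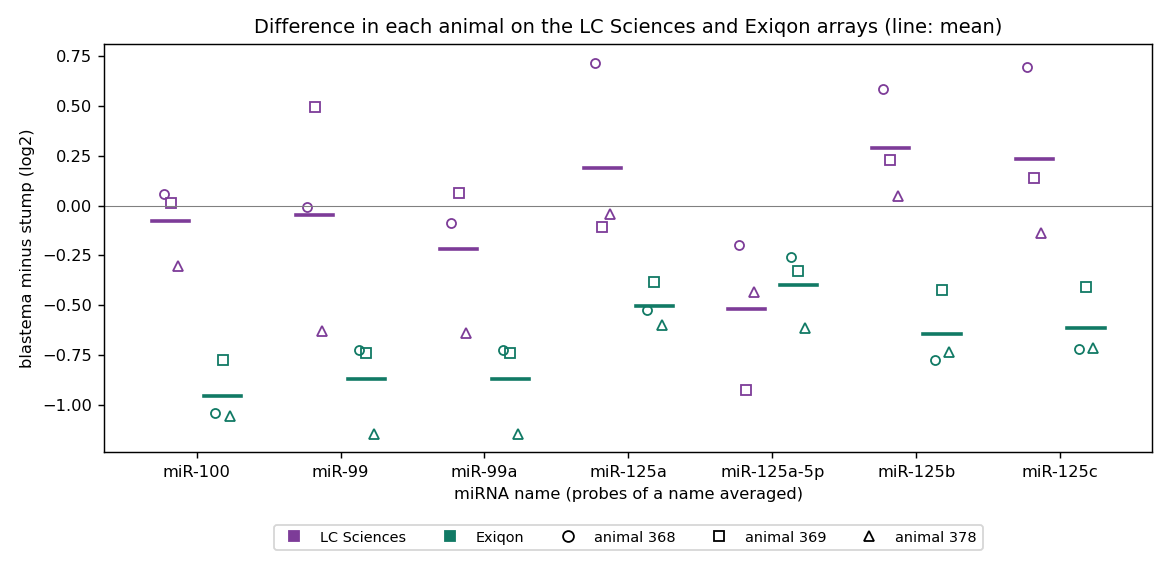
Blastema minus stump (log2) in each animal for the 7 member names measured on both platforms, LC Sciences on the left and Exiqon on the right of each name. Lines give the mean over the 3 animals. The Exiqon values of all names lie below 0, and the LC Sciences values lie around 0 except for miR-125a-5p.

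The let-7 miRNAs that share these gene clusters were lower in blastema on both arrays. On Exiqon 4 of 5 probes for let-7a, let-7c and let-7e were called lower (median -0.67), and the mammalian let-7e probe was not (0.26, adjusted p = 0.123). On LC Sciences 11 of 12 were called lower, as were 112 of all 500 probes, with a median of -1.33 where the members had 0.13. The human let-7c probe read 1774, 2000 and 1707 in blastema, against 4206, 5700 and 3744 in stump (difference -1.30, adjusted p = 0.00414). Here the groups did not overlap, unlike miR-99a and miR-125b on the same arrays. For let-7a the platforms gave -0.77 on LC Sciences and -0.95 on Exiqon (gap 0.17, adjusted p = 0.505). For let-7c the gap ran the other way from that of most members (-0.77, limma adjusted p = 0.0208). It had -1.41 on LC Sciences and -0.64 on Exiqon. So did the gap for let-7e, with -2.44 on LC Sciences and -0.44 on Exiqon (adjusted p = 0.000355 for the gap). Both let-7e values are means over unlike probes. The LC Sciences probes gave -1.80 (zebrafish, its blastema signals all under 32), -2.23 (frog) and -3.31 (human). The Exiqon probes gave -0.67 (fishes and chicken), -0.91 (frog) and 0.26 (mammals).

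The passenger strands, the strands of the miRNA duplex that are mostly discarded, gave little to compare. All 7 LC Sciences probes for them were left out by the filter on dim probes, and none of the 5 Exiqon probes was called (differences 0.02 to 0.22, adjusted p 0.316 to 0.932). Among these 5, miR-100* was brighter than every negative control on 0 arrays, and miR-125b-1* on 2 blastema arrays and 0 stump arrays. Of 7 Exiqon probes that bear only invertebrate names of these families, 3 were called lower: the fly miR-100 probes of Drosophila melanogaster (-0.85, adjusted p = 0.00085) and Drosophila pseudoobscura (-0.39, adjusted p = 0.0404) and the honeybee miR-125 probe (-0.63, adjusted p = 0.00314). The lin-4 probe of nematodes (-0.13) and the planarian probes for lin-4 (-0.03), miR-125a (-0.18) and miR-125b (0.15) were not called. These were at or near background. Planarian lin-4 was brighter than every negative control on 1 blastema array and 2 stump arrays, the others on 0. Each probe that was called was so on all 3 arrays of both groups.

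The miR-10 miRNAs, encoded in the Hox clusters and close to miR-99/100 in sequence, were called lower by 4 of 6 Exiqon probes (median -0.46) and by 7 of the 9 LC Sciences probes tested, of 13 in all (median -1.31). For miR-10b the LC Sciences difference was -1.75 and that of Exiqon -0.62 (gap -1.13, adjusted p = 0.00277).

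The names whose pattern over the 6 Exiqon samples was most like the miR-99/100 mean were miR-195 (Pearson r 0.997), miR-30e-5p and miR-222 (both 0.996), out of 452 names. For the miR-125 mean they were miR-181a-1* (0.997), miR-195 (0.997) and miR-567 (0.996). On LC Sciences, out of 133 names, miR-140-3p (0.827), miR-30e (0.803) and miR-140* (0.801) were most like miR-99/100, and miR-365 (0.809), miR-143 (0.676) and miR-92 (0.636) most like miR-125. These values describe 6 samples that differ by tissue and share an animal in pairs.

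Markers of muscle, cartilage and endothelium were mostly lower in blastema on both arrays. The members were lower on Exiqon, but had a median of 0.13 in the normalized LC Sciences signals. Of the muscle miRNAs (miR-1, miR-133, miR-206, miR-208 and miR-499), 14 of 16 Exiqon probes were called lower, with a median of -2.47, as were 18 of the 37 LC Sciences probes tested, of 42 in all. There all 7 miR-1 and all 6 miR-206 probes were called, but 2 of 21 miR-133 probes (median -1.51). Their summed LC Sciences signal was 5231 to 51452 in blastema and 137881 to 153089 in stump. All 6 cartilage probes (miR-140, miR-455) and all 3 endothelial probes (miR-126) on Exiqon were lower, with medians of -1.42 and -1.02, and on LC Sciences so were 3 of 3 cartilage probes tested, of 8 in all, each of them for miR-455, and 4 of 4 endothelial probes. The cartilage probes summed to 137 to 291 in blastema and 476 to 764 in stump, the endothelial probes to 1729 to 3350 in blastema and 6079 to 6738 in stump. Their part in the difference of the members was not tested.

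Epidermal, blood and nerve markers moved less uniformly. The epidermal miR-203 was called lower by 3 of 3 Exiqon probes (median -0.45) and by 0 of 6 LC Sciences probes (median 0.21, adjusted p 0.118 to 0.570). The epidermal miR-205 was called higher by 9 of 9 LC Sciences probes (median 1.86) and by 0 of 3 Exiqon probes (median -0.24, adjusted p 0.0615 to 0.765). Together their summed LC Sciences signal was 52582 to 69799 in blastema and 35214 to 40762 in stump, and relative to the spike-in probes 6 of 6 miR-203 probes and 2 of 9 miR-205 probes were called lower. The myeloid miR-223 was higher on both arrays, by 1.57 on Exiqon and by a median of 1.92 over 5 LC Sciences probes (summed signal 938 to 3036 in blastema, 289 to 826 in stump). It was not called with median centring or the spike-in loess of Exiqon, nor relative to the spike-in probes of LC Sciences, where its probes lay between -1.26 and -0.62. Of the red blood cell miRNAs, miR-451 was called higher by 5 of the 6 LC Sciences probes tested, of 8 in all (median 2.12, and -0.80 relative to the spike-in probes), and none of the 5 probes for miR-144 passed the filter. On Exiqon none of the 3 miR-451 probes (differences -0.08 to 0.73) and none of the 5 miR-144 probes (-0.33 to 0.02) was called. The summed LC Sciences signal of both was 2907 to 11242 in blastema and 1194 to 2098 in stump. Of the nerve miRNAs miR-9 and miR-124, 1 of 7 Exiqon probes was called lower and no LC Sciences probe passed the filter (summed signal 119 to 160 in blastema, 86 to 211 in stump). Their part in the results of the members was not tested.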

How the data were processed

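Small RNA in total RNA of 6 samples was read on 2 array platforms. The authors deposited Exiqon scanner values as intensity per spot, log2 median ratios made by the company (normexp, loess), and LC Sciences normalized signals, whose method is not settled (Lowess in the methods, a global normalization in report headers). These deposited LC Sciences signals are on a linear scale with no stated unit.

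Exiqon ratios were recomputed with limma 3.58.1 in R 4.3.3 (normexp offset 10, loess, control spots at weight 0), dropping flagged spots and averaging the rest of 4 per probe. They correlated at 0.999 with the deposited log2 ratios. Probes needed 50% of spots over local background by 2 SD on all arrays of a group. LC Sciences signals under 32 were set to 32, and probes needed 32 in all samples of a group. Spike-in probes were the 5 PUC2 controls. Groups were compared unpaired with limma (lmFit, eBayes, Benjamini-Hochberg over all probes tested). Scripts were tested on simulated data. Replicate numbers mark the same animal in both groups. Deviations of same-numbered samples from their group means correlated at -0.03 to 0.00 (Exiqon) and -0.05 to 0.17 (LC Sciences). Precision is limited by the small number of arrays. LC Sciences probes with a C_ prefix, which no source explains, were read as the miRNA they name. The authors' own fold changes and p-values were not used.

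All member probes were named, with lists of cluster partners, passenger strands, invertebrate names, miR-10 names and tissue markers, and the 3 names most like each family. The members and lists were chosen with earlier results of these data known.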

Additional observations from a re-analysis of the deposited data

How the results depend on the processing

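Of the 8 Exiqon member probes called lower, 7 or 8 stayed called under every other normalization, background correction, filter or flag setting that kept them and with the replicate block (7; LC Sciences, 0 as before). Over all probes tested, 179 (replicate block) to 262 (median centring) were called lower in those settings. The methods' t-test at the study's threshold called 2, and after Benjamini-Hochberg 7, where 33 and 154 of all 2011 probes were called lower. The deposited log2 ratios held 6 of the 8, all called, where 151 of 380 probes were called lower. Leaving out an animal or an array gave 2 to 8, the lowest without animal 378, where 97 to 199 of all 2011 probes were called lower. Every Exiqon member difference stayed below 0. The miR-125a/miR-125a-5p probe lost its call in 9 of 21 settings and the miR-99b probe in 6 of 19.

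On LC Sciences 21 members were called lower relative to the spike-in probes and 0 under each other setting, also when an animal was left out. Without animal 368, 369 or 378, 100, 62 and 110 of all 500 probes were called higher and 95, 43 and 82 lower. Of the platform gaps, 6 were called higher on LC Sciences, of 67 over all 153 names. With median centring of Exiqon 5 were, of 89 over all names. With LC Sciences centred on the median of the probes kept 4 were, of 58. Relative to the spike-in probes 0 were higher and all 7 were called lower, as were 147 of the 153 names. When an animal was left out 2 to 4 were higher, of 45 to 70 over all 153 names. Relative to the spike-in probes the gaps reversed, to -2.23 (miR-125a), -1.99 (miR-125b), -2.07 (miR-125c), -2.04 (miR-100), -2.10 (miR-99) and -2.27 (miR-99a). The gap of miR-125a-5p was -3.04 at that scale, 0.14 with median centring of Exiqon, 0.12 without animal 369 and -0.27 without animal 378. On the array of animal 368 the median relative to the spike-in probes was -0.60 with the background from the blank spots, chosen after seeing the data, against -0.74. The cause of these changes was not tested.

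Over all Exiqon probes 406 were called, against 253 with the spike-in loess, 84 with the t-test at the study's threshold, 260 without animal 369 and 180 without animal 378. Calls split 189 higher and 217 lower, against 57 and 262 with median centring and 28 and 225 with the spike-in loess. Over all LC Sciences probes 241 were called, against 433 relative to the spike-in probes, 143 with the t-test and 105 without animal 369.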
